A study of Mus musculus with 12 samples.

Results

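The Trav12 family is a set of closely related variable segments of the mouse T cell receptor alpha locus (Tcra), found at several places along it as copies of a duplicated block. Its members were taken as every row named TRAV12-n or TRAV12D-n, with all Traj partners, in all 12 deposited tables. The rule found 6 of the 85 Trav segments listed in any table. These were 3 D copies, TRAV12D-1, TRAV12D-2 and TRAV12D-3, and the 3 segments of the same number without the D, TRAV12-1, TRAV12-2 and TRAV12-3, here called the proximal members. All 6 were among the 79 Trav segments listed in every table, and no filter on low values was applied.

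The tables came from CD3e(-) pre-selection thymocytes that are double-positive (DP) for CD4 and CD8. The mice were 4 to 6 weeks old. The KO mice were homozygous for DPASEKO and the WT mice were homozygous wild type. From general knowledge of the field, DPASE regulates the neighbouring genes Rag1 and Rag2, which encode the recombinase that joins these segments. Both genotypes carried TcrdCreER, a tamoxifen-dependent Cre at the Tcrd gene, and a Rosa26 ZsG reporter in which Cre switches on the fluorescent protein ZsGreen. The strain was C57BL/6J, with TcrdCreER and the Tcra-Tcrd region around it from strain 129, as far as the labels describe it. At steady state all CD3e(-) DP cells were used, and at 24 h and 48 h the cells were ZsGreen+, sampled after 1 mg of tamoxifen. Each genotype and sampling had 2 libraries, which made 6 groups in 12 libraries. The design speaks of groups of 2 mice and does not say whether each library was its own mouse, so p-values measure only how far these libraries spread, which may be technical.

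A Tcra gene is assembled in DP thymocytes by joining a Trav segment to a Traj segment. A first joining can be replaced by later ones on the same chromosome, which use Trav segments farther from the Traj array and Traj segments farther toward its 3' end. Proximal Trav segments and 5' Traj segments, which have high numbers, are therefore known as the partners of early joinings, and distal Trav segments and 3' Traj segments as those of late ones. The comparison asks how the usage of each member along this order stood in KO and in WT cells.

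In the GENCODE M21 annotation of build GRCm38, all members lay on the + strand of chromosome 14, upstream of the Traj array. The gene Trav12d-1 spans chr14:52844465-52845041 and ends 1312.2 kb before Traj58, the most 5' Traj segment in the tables. Trav12d-2 spans chr14:52915799-52916426 and ends 1240.9 kb before it, and Trav12d-3 spans chr14:52929789-52930282 and ends 1227.0 kb before it. The proximal genes lie less far away. Trav12-1 spans chr14:53538191-53538738 and ends 618.5 kb before Traj58, Trav12-2 spans chr14:53616315-53616914 and ends 540.4 kb before it, and Trav12-3 spans chr14:53621657-53622245 and ends 535.0 kb before it. Between the D copies and the proximal members the annotation places Trav12n-1, Trav12n-2 and Trav12n-3, at 1001.2, 929.9 and 916.0 kb from Traj58. No N copy is listed in the tables, nor is Trav12-4, an annotated pseudogene 378.4 kb from Traj58.

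Exon 2 of each gene encodes the variable domain, and its last bases stand next to the junction with the Traj segment. The last 150 bases of exon 2 are printed for each D copy and its counterpart because the bases that separate them near the junction are those by which a read can be given to a member. They are on the + strand of GRCm38, 5' to 3', and capitals mark the bases that differ between the D copy and its counterpart.
Trav12d-1 (chr14:52844892-52845041): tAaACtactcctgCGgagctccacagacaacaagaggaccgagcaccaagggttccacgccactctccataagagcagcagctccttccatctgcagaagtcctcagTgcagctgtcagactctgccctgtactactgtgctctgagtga
Trav12-1 (chr14:53538589-53538738): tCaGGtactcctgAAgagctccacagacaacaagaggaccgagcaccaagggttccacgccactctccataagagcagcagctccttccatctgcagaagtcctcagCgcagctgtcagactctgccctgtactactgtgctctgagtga
Trav12d-2 (chr14:52916277-52916426): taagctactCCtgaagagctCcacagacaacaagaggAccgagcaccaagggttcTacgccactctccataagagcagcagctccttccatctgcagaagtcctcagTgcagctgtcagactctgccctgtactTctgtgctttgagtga
Trav12-2 (chr14:53616765-53616914): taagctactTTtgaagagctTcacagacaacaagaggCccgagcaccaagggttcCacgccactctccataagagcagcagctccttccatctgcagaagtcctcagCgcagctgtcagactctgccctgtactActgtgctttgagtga
Trav12d-3 (chr14:52930133-52930282): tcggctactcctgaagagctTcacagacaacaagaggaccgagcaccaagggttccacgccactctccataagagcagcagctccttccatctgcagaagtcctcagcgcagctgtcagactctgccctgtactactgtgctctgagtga
Trav12-3 (chr14:53622096-53622245): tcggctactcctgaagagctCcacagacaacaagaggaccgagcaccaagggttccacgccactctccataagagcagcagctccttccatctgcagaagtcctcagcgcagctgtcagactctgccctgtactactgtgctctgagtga

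Over the whole of exon 2, Trav12d-1 and Trav12-1 differed at 15 of 295 bases, Trav12d-2 and Trav12-2 at 11 of 292, and Trav12d-3 and Trav12-3 at 10 of 301. The identities were 94.92%, 96.23% and 96.68%. Counted from the 3' end of the exon, with the last base as 1, the nearest difference stood at base 43 in the first pair, at base 16 in the second and at base 130 in the third, which had 0 differences in its last 100 bases. Trav12-1 and Trav12-3, which are not counterparts, were 91.53% identical, with the nearest difference 146 bases from the end. Aligned without gaps from the 3' end, Trav12d-2 and Trav12-2 were 67.81% to 69.52% identical to the other members, whose exons differ from theirs in length. Without gaps, a difference in length can put the more 5' bases out of register, so these identities may understate the likeness. In its last 100 bases Trav12-2 had 1 difference from Trav12-1, from Trav12-3 and from Trav12d-3, against 3 from its own counterpart Trav12d-2. Each D copy was identical over exon 2 to the N copy of its number, so a read that covers exon 2 alone cannot tell the D from the N copy in this reference. Neither the read length nor the rule that gave reads to segments is stated in the sources used here. The reference is strain C57BL/6 while the labels name strain 129 at this locus, so the bases in these mice may differ.

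**Figure D1:**
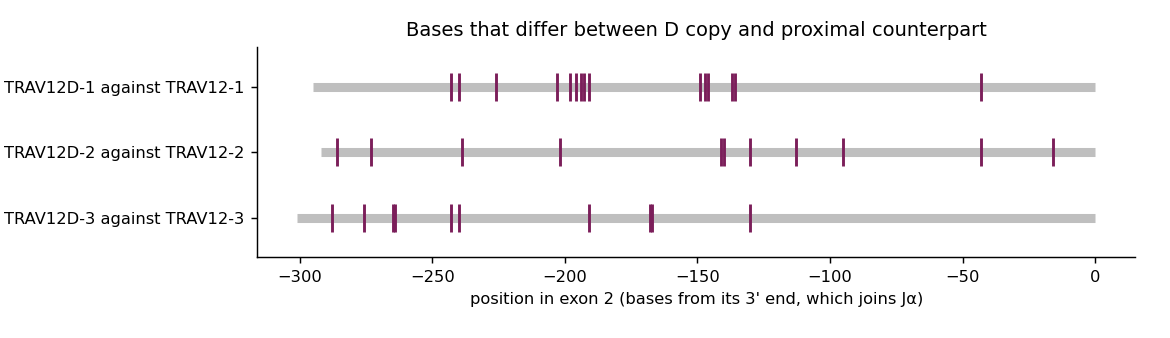
Positions of the bases that differ within each pair of a D copy and its proximal counterpart (rows), as bases from the 3' end of exon 2 (x axis), which adjoins the Traj segment in a joined gene. The third pair has no difference within its last 100 bases, against 1 in the first pair and 3 in the second.

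A share here is a table's value divided by that table's own total and multiplied by 100, so that it is a percentage of the library's repertoire. The division matters because 8 tables summed to nearly 1 (0.995 to 0.998) and the other 4, replicate 2 of KO and of WT at each tamoxifen sampling, summed to nearly 2 (1.97 to 1.99). In those 4 tables, between 41.1% and 54.7% of the 258 member pairs of a Trav with a Traj segment stood at 0, against 0% to 12.4% in the other 8. Depth in reads is unknown, so no counting interval or floor in reads is given. The smallest share above 0 was 0.00401% to 0.00937% in those 4 tables and 0.000336% to 0.000853% in the other 8. Between replicates, the median absolute log2 ratio over 79 Trav segments was 0.12 in KO and 0.16 in WT at steady state, and 0.94 to 1.04 in the groups that include the 4 tables. No value in the tables measures DPASE, Rag1 or Rag2, and the genotypes rest on the labels alone. Pairs that mark other T cells took small shares of the repertoire: TRAV11-TRAJ18 of invariant NKT cells took at most 0.0462%, TRAV11D-TRAJ18 at most 0.00498% and TRAV1-TRAJ33 of MAIT cells at most 0.0503%. Single pairs are all small, however. TRAV12D-1 with Traj58, the pair of highest mean share for that member, took 0.0426% to 0.0545% at steady state. Trav segments with a DV name, which can also join in the Tcrd gene of gamma-delta cells, took 11.03% to 33.2%, and their part in the results was not tested.

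The family as a whole took a middling part of the repertoire. At steady state it held 8.20% and 8.58% in KO libraries, against 8.28% and 7.63% in WT libraries. At 24 h it held 7.82% and 5.51% in KO, against 7.65% and 4.18% in WT, and at 48 h 8.97% and 5.51% in KO, against 8.33% and 4.42% in WT. The groups overlapped at every sampling, and the lower value at 24 h and 48 h was replicate 2 in both genotypes. Within the family the members ranged from among the most used of the 79 Trav segments to among the least. TRAV12-3 ranked 4th to 47th by share, TRAV12-2 9th to 30th, TRAV12D-2 8th to 37th, TRAV12D-1 34th to 44th, TRAV12-1 30th to 67th and TRAV12D-3 58th to 73rd.

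The 3 D copies together held less of the repertoire in KO than in WT cells at steady state, and the proximal members together held more. The summed D copies took 3.09% and 3.38% in KO, against 3.98% and 3.93% in WT at steady state, 2.15% and 1.76% against 2.15% and 1.44% at 24 h, and 2.61% and 1.71% against 3.79% and 2.02% at 48 h. For the summed proximal members the values were 5.11% and 5.201% in KO, against 4.30% and 3.70% in WT at steady state, 5.67% and 3.76% against 5.50% and 2.75% at 24 h, and 6.35% and 3.80% against 4.54% and 2.40% at 48 h. The 2 sums did not overlap between genotypes at steady state and overlapped at both later samplings. Of the 79 single segments, 67.1% did not overlap at steady state, in either direction. No test was made on the sums.

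TRAV12D-1, the most distal member, took 0.879% and 0.971% in KO, against 1.25% and 1.21% in WT at steady state. At 24 h it took 0.950% and 0.669% in KO, against 1.01% and 0.649% in WT, and at 48 h 0.792% and 0.603% in KO, against 1.11% and 0.699% in WT. KO was the lower genotype at steady state without overlap, where 67.1% of the 79 segments did not overlap in either direction. The groups overlapped at the later samplings. In 5 of 6 comparisons of libraries with the same replicate number, KO was lower.

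TRAV12D-2 was the most used D copy in 11 of 12 libraries. It took 1.75% and 2.06% in KO, against 2.14% and 2.33% in WT at steady state, 0.975% and 0.993% against 0.921% and 0.705% at 24 h, and 1.44% and 1.02% against 2.15% and 1.13% at 48 h. KO was lower without overlap at steady state and higher without overlap at 24 h, where 67.1% and 12.7% of the 79 segments did not overlap in either direction.

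TRAV12D-3 was the least used member in 10 of 12 libraries. It took 0.458% and 0.353% in KO, against 0.584% and 0.394% in WT at steady state, 0.225% and 0.0942% against 0.225% and 0.0823% at 24 h, and 0.383% and 0.0883% against 0.523% and 0.189% at 48 h. The genotypes overlapped at each sampling. In the 4 tables with totals near 2 this member was seen with only 7 to 11 of the 43 Traj segments.

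TRAV12-1 was the least used of the proximal members in 11 of 12 libraries. Its shares were 0.546% and 0.528% in KO, against 0.472% and 0.409% in WT at steady state, 0.676% and 0.928% against 0.597% and 0.478% at 24 h, and 0.559% and 0.486% against 0.466% and 0.284% at 48 h. KO was higher without overlap at each sampling and in 6 of 6 comparisons of libraries with the same number. The share of the 79 segments without overlap, in either direction, was 67.1%, 12.7% and 20.25% at steady state, 24 h and 48 h.

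TRAV12-2 took 2.09% and 1.99% in KO, against 1.76% and 1.37% in WT at steady state, 2.06% and 1.96% against 1.96% and 1.57% at 24 h, and 2.67% and 2.46% against 1.89% and 1.604% at 48 h. The genotypes did not overlap at steady state and 48 h, where KO was higher and 67.1% and 20.25% of the 79 segments did not overlap in either direction. TRAV12-3 took 2.48% and 2.69% in KO, against 2.07% and 1.92% in WT at steady state, 2.93% and 0.869% against 2.95% and 0.696% at 24 h, and 3.13% and 0.855% against 2.19% and 0.510% at 48 h. Its replicates lay far apart at both later samplings, with replicate 2 lower than replicate 1 by a median of -1.96 on the log2 scale, the 11th lowest of 79 Trav segments.

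**Figure D2:**
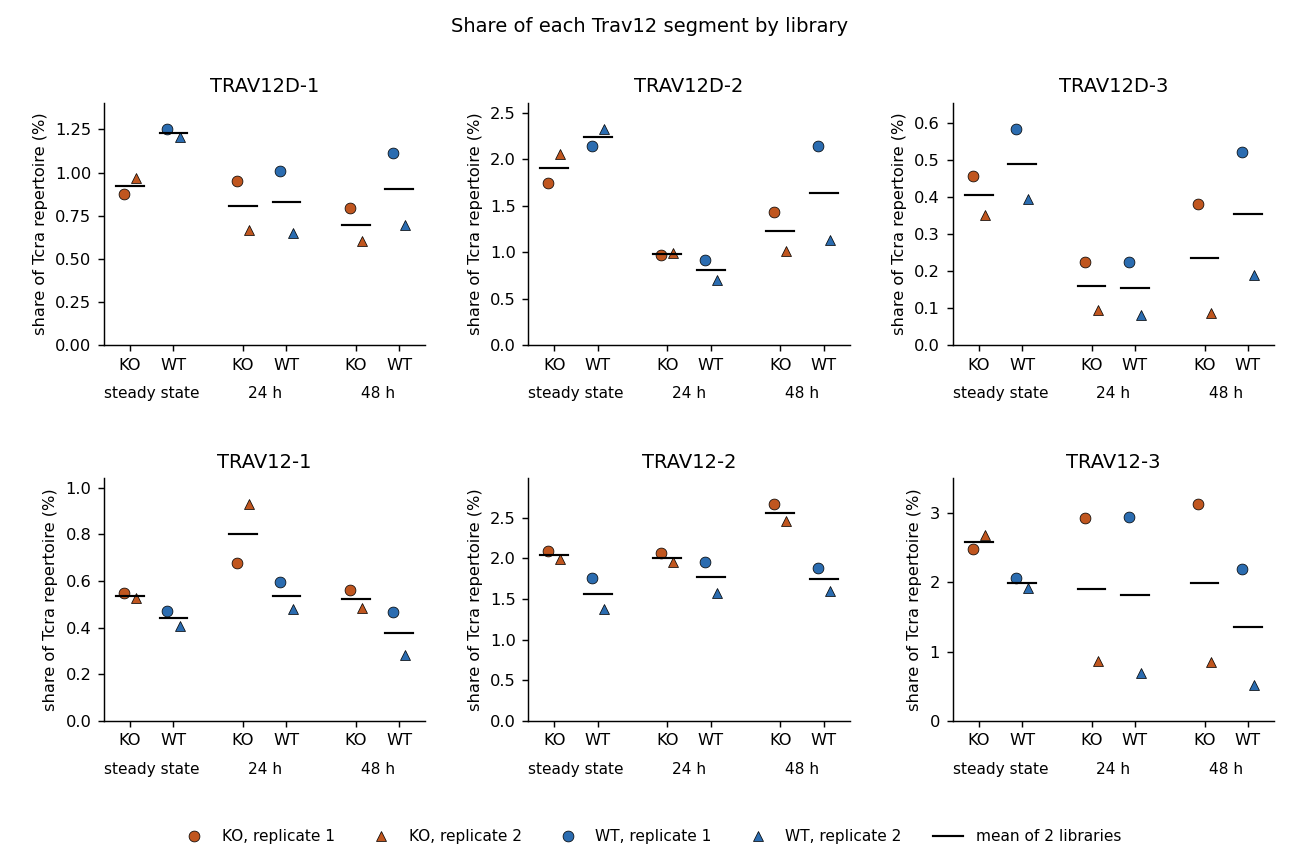
Share of the repertoire (y axis, %) of each of the 6 Trav12 members in each library, by sampling and genotype, with points for libraries and lines for the mean of 2. KO points lie above WT points for TRAV12-1 at each sampling, and for TRAV12-3 the replicates at 24 h and 48 h lie far apart in both genotypes.

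The shares were tested with limma on log2(percent + 0.01) over 79 Trav segments, with Benjamini-Hochberg adjustment and a call at an adjusted p below 0.05. KO minus WT called 0 of 6 members in each of the 3 samplings and in their mean, where 0% of the 79 segments were called in each case. At an unadjusted p below 0.05 the counts were 0, 0, 1 and 5 of 79, with 1 member among the last. The estimates for the mean of the samplings were -0.26 (SE 0.22) for TRAV12D-1, -0.11 (SE 0.22) for TRAV12D-2, -0.30 (SE 0.47) for TRAV12D-3, 0.45 (SE 0.20) for TRAV12-1, 0.38 (SE 0.16) for TRAV12-2 and 0.38 (SE 0.57) for TRAV12-3, on the log2 scale. The signs for TRAV12D-2 and TRAV12D-3 turned without replicate 1 of WT at 48 h (0.05) and without replicate 2 of KO at 48 h (0.04).

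Same-numbered libraries of KO and WT deviated together, so the fit with the replicate number as a block is given beside this one. At 48 h the block fit called 3 members in limma: TRAV12D-3 at -0.73 (SE 0.17), TRAV12-2 at 0.55 (SE 0.13) and TRAV12-3 at 0.62 (SE 0.14), each with an adjusted p of 0.0325. In the fit without the block the estimate for TRAV12D-3 turned to 0.27 without replicate 2 of KO at 48 h, and that for TRAV12-3 turned to -0.31 without replicate 1 of KO and to -0.42 without replicate 2 of WT at 48 h. The block fit called 35.4% of the 79 segments, 19% higher and 16.5% lower in KO. For the mean of the samplings the block fit called 4 members, TRAV12D-1 lower at -0.26 (adjusted p = 0.0416) and TRAV12-1, TRAV12-2 and TRAV12-3 higher, with adjusted p of 0.0412, 0.0170 and 0.0186. The share of all 79 segments called was 43%, with 19% higher and 24.1% lower. With the block, 3 of 3 proximal members were higher and 1 of 3 D copies lower, against these background shares. Without the 4 tables with totals near 2 and without the block, TRAV12D-1 at -0.33 (adjusted p = 0.0378) and TRAV12-3 at 0.29 (adjusted p = 0.0458) were called in the mean, with 41.8% of the 79 segments called.

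No member share passed the test for a change between 24 h and 48 h. In limma, 48 h minus 24 h called 0 members in KO and 0 in WT, with 1.27% of the 79 segments called in each, and 0 for the difference of the changes between genotypes (0%, with 1 of 79 at an unadjusted p below 0.05). The median log2 change over the 79 segments between these samplings was 0.28 in KO and 0.27 in WT, and -0.04 and 0.01 once each library was centred on its mean log2 share. Without the 4 tables with totals near 2, each group at 24 h and 48 h had 1 library. In WT the log2 change was then 1.22 for TRAV12D-2 and 1.18 for TRAV12D-3. The median was 0.04 over the 6 members and 0.26 over the 79 segments.

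The ratio of a D copy to its own counterpart stood lower in KO than in WT cells at steady state and 48 h without overlap. That direction was shared by nearly all D pairs in the repertoire. The ratio passed the test in a fit with the replicate number as a block and not in the fit without it. Summed over the family, the D copies amounted to 0.603 and 0.650 of the proximal members in KO, against 0.927 and 1.06 in WT at steady state. At 24 h this ratio was 0.379 and 0.468 in KO, against 0.391 and 0.523 in WT, and at 48 h 0.411 and 0.449 in KO, against 0.833 and 0.843 in WT. The genotypes did not overlap at steady state and 48 h, and did overlap at 24 h.

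The 3 pairs differed in which partner was used more. TRAV12D-1 exceeded TRAV12-1 in 11 of 12 libraries, with a log2 ratio of 0.68 and 0.87 in KO, against 1.39 and 1.54 in WT at steady state, 0.48 and -0.47 against 0.74 and 0.44 at 24 h, and 0.50 and 0.31 against 1.24 and 1.27 at 48 h. TRAV12D-2 exceeded TRAV12-2 in 4 of 12 libraries, with -0.25 and 0.05 in KO, against 0.29 and 0.76 in WT at steady state, -1.07 and -0.97 against -1.08 and -1.15 at 24 h, and -0.89 and -1.27 against 0.19 and -0.50 at 48 h. TRAV12D-3 exceeded TRAV12-3 in 0 of 12, with -2.41 and -2.89 in KO, against -1.81 and -2.25 in WT at steady state, -3.65 and -3.08 against -3.65 and -2.93 at 24 h, and -3.00 and -3.14 against -2.05 and -1.39 at 48 h. All 3 ratios were lower in KO than in WT without overlap at steady state and at 48 h. Of all 33 D pairs, the KO minus WT estimate was below 0 in 33 at steady state and in 32 at 48 h. How many of the 33 did not overlap was not counted.

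**Figure D3:**
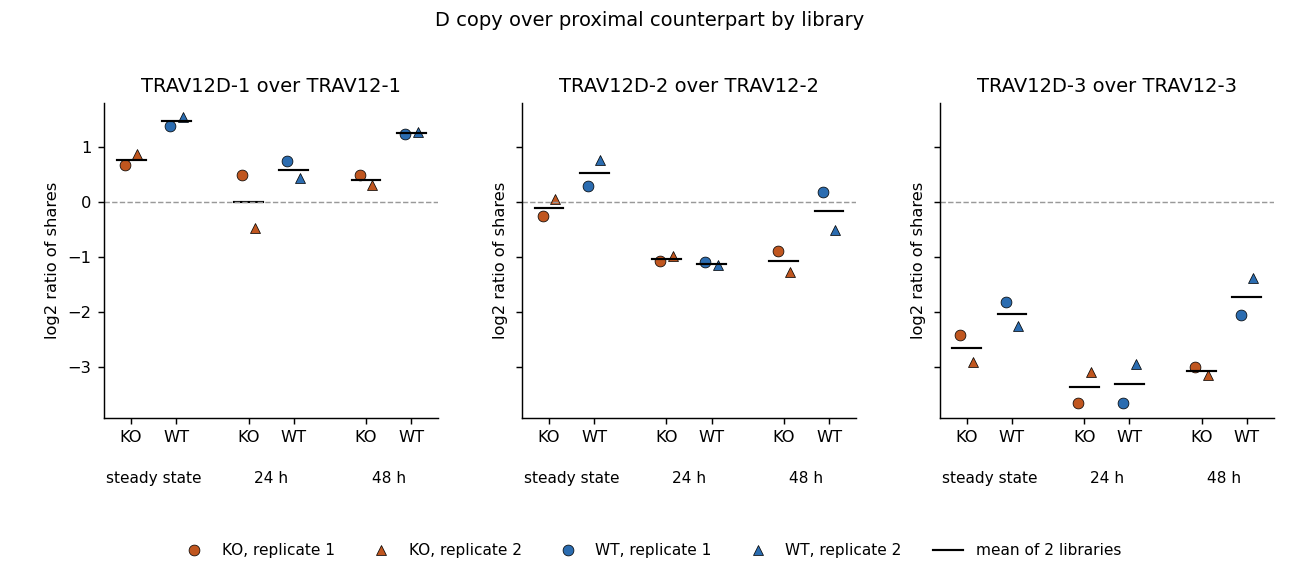
Ratio of the share of each D copy to that of its proximal counterpart (y axis, log2) in each library, by sampling and genotype. In all 3 pairs the KO points lie below the WT points at steady state and 48 h, and the pairs sit at different heights, with TRAV12D-1 mostly above 0 and TRAV12D-3 below 0 in every library.

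Averaged over the 6 groups, the ratio differed from 0 for each of the 3 pairs in limma over the 33 pairs of a D copy and a counterpart in the tables. The mean log2 ratio was 0.75 (SE 0.10, adjusted p = 9.18e-05) for TRAV12D-1, -0.49 (SE 0.10, adjusted p = 0.00103) for TRAV12D-2 and -2.69 (SE 0.12, adjusted p = 1.11e-07) for TRAV12D-3. The background was 100% of the 33 pairs called, and 90.9% with the D copy lower. By mean log2 ratio, TRAV12D-1 stood 3rd of 33 pairs from the top, TRAV12D-2 7th and TRAV12D-3 32nd. The ends of that order were TRAV7D-2 over TRAV7-2 at 2.85, higher in 12 of 12 libraries, and TRAV11D over TRAV11 at -2.76, higher in 0 of 12.

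For KO minus WT the fit without the block called 0 of 3 Trav12 pairs at each sampling and in the mean, with 0% of 33 pairs called in each. At an unadjusted p below 0.05 it had 0, 0, 7 and 7 of 33 pairs, with 0, 0, 3 and 3 of the Trav12 pairs. With the replicate block the Trav12 pairs were called at steady state, at 48 h and in the mean. At steady state the block fit gave -0.69 for TRAV12D-1, -0.63 for TRAV12D-2 and -0.62 for TRAV12D-3, each with a limma adjusted p of 0.0497 (0.611 without the block), where 21.2% of the 33 pairs were called. At 48 h it gave -0.85, -0.92 and -1.35 in the same order, with adjusted p of 0.00159, 0.000746 and 1.21e-06 (0.189, 0.188 and 0.161 without the block), where 54.5% were called. In the mean of the samplings it gave -0.71, -0.48 and -0.68, with adjusted p of 1.39e-05, 0.00196 and 2.59e-05 (0.158, 0.174 and 0.158 without the block), where 69.7% were called. At 24 h it called 0 of the 3, with 9.09% of the 33 called. This fit has 3 residual degrees of freedom and 99 after moderation, because limma found nearly the same spread in all 33 pairs, so its p-values are small for 12 libraries.

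The other 30 D pairs differed between genotypes in the same direction. Their summed ratio was 0.509 and 0.540 in KO, against 0.691 and 0.7497 in WT at steady state, 0.272 and 0.306 against 0.324 and 0.297 at 24 h, and 0.438 and 0.373 against 0.674 and 0.534 at 48 h. The log2 ratio was lower in KO in 30 of these 30 pairs at steady state and in 29 at 48 h. The median KO minus WT difference of the 3 Trav12 pairs was -0.63 in steady-state cells, -0.07 at 24 h and -0.92 at 48 h, and that of all 33 pairs was -0.49, -0.10 and -0.57.

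From 24 h to 48 h TRAV12D-3 gained on TRAV12-3 in WT cells, the Trav12 pair called, with a log2 change of 1.58 (SE 0.40, limma adjusted p = 0.0173), where 27.3% of the 33 pairs were called. With the block TRAV12D-2 was called too, at 0.96 (adjusted p = 0.0398, against 0.0627 without the block), with 45.5% of pairs called. The call on TRAV12D-3 was lost without replicate 1 of WT at 24 h (adjusted p = 0.0790) and without replicate 1 (0.0634) or replicate 2 (0.0868) of WT at 48 h. In KO, 0 of 3 Trav12 pairs were called in limma, with 0% of pairs called and 7 of 33 at an unadjusted p below 0.05, and with the block 24.2% of pairs and 0 of 3. The test of the difference between the changes in KO and in WT called 0 of 33 pairs (0%, with 1 at an unadjusted p below 0.05), so the changes were not shown to differ between genotypes.

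The Traj partners of the members were summarised as the mean Jα number, the average Traj number of a member's joinings weighted by their shares. Traj numbers fall toward the 3' end of the array, so a higher mean marks more 5' partners. In every member the mean was higher in KO than in WT cells at steady state and at 24 h without overlap. The same held at 48 h for 5 of 6 members, the exception being TRAV12D-3. Nearly all Trav segments shared this direction. The KO minus WT estimate was above 0 in 79 of 79 segments in steady-state cells. For the 24 h sampling it was above 0 in 77 of them, and for the 48 h sampling in 76. How many of the 79 did not overlap in this measure was not counted.

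At steady state the mean Jα number of TRAV12D-1 was 36.7 and 33.9 in KO, against 29.4 and 27.2 in WT. That of TRAV12D-2 was 30.9 and 28.5 in KO, against 24.2 and 22.4 in WT, and that of TRAV12D-3 was 32.2 and 26.3 in KO, against 25.4 and 20.8 in WT. Each proximal member stood above its D copy in every steady-state library. TRAV12-1 had 39.9 and 38.9 in KO, against 37.1 and 35.3 in WT. TRAV12-2 had 36.7 and 35.3 in KO, against 34.2 and 33.8 in WT, and TRAV12-3 had 38.9 and 37.4 in KO, against 36.5 and 35.5 in WT. KO was higher in all 6 members. The KO minus WT difference was called for TRAV12D-1 at 7.04 (SE 1.47, adjusted p = 0.00469) and TRAV12D-2 at 6.43 (SE 1.66, adjusted p = 0.0102) in limma over the 79 segments. It was 6.11 (adjusted p = 0.105) for TRAV12D-3, 3.23 (0.0861) for TRAV12-1, 2.04 (0.130) for TRAV12-2 and 2.19 (0.140) for TRAV12-3. The background was 48.1% of segments called, all higher in KO. Without replicate 1 of KO (adjusted p = 0.0724 and 0.105) or replicate 2 of WT (0.0663 and 0.0896) at steady state, neither TRAV12D-1 nor TRAV12D-2 was called.

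At 24 h the members stood at the 5' end of the Traj array and close to each other. TRAV12D-1 had 49.0 and 50.4 in KO, against 45.2 and 43.7 in WT. TRAV12D-2 had 48.6 and 50.9 in KO, against 42.6 and 45.6 in WT, and TRAV12D-3 had 47.3 and 52.8 in KO, against 42.6 and 41.9 in WT. KO was higher without overlap in each D copy. TRAV12-1 had 48.7 and 50.1 in KO, against 43.6 and 44.5 in WT. TRAV12-2 had 44.5 and 46.4 in KO, against 40.3 and 41.1 in WT, and TRAV12-3 had 44.9 and 45.8 in KO, against 41.0 and 42.7 in WT. These last proximal members were lower than TRAV12-1 in all 4 libraries. limma called 5 of 6 members higher in KO, with 46.8% of the 79 segments called. The differences were 5.29 for TRAV12D-1 (adjusted p = 0.0165), 5.60 for TRAV12D-2 (0.0218), 5.36 for TRAV12-1 (0.0165), 4.72 for TRAV12-2 (0.0118) and 3.49 for TRAV12-3 (0.0388), and 7.78 for TRAV12D-3 (0.0554), which was not called. Without replicate 2 of KO or replicate 1 of WT at 24 h, 0 of 6 members were called.

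At 48 h TRAV12D-1 had 41.4 and 40.1 in KO, against 31.0 and 33.9 in WT. TRAV12D-2 had 34.9 and 34.2 in KO, against 25.99 and 29.8 in WT, and TRAV12D-3 had 36.0 and 30.3 in KO, against 27.4 and 34.3 in WT. KO and WT overlapped in TRAV12D-3 and in neither of the other D copies. TRAV12-1 had 40.04 and 39.9 in KO, against 34.8 and 39.1 in WT. TRAV12-2 had 36.9 and 37.4 in KO, against 33.1 and 33.9 in WT, and TRAV12-3 had 38.6 and 38.9 in KO, against 35.3 and 32.8 in WT. All 3 proximal members were higher in KO without overlap. Called in limma were TRAV12D-1 at 8.34 (adjusted p = 0.00119), TRAV12D-2 at 6.67 (0.00624), TRAV12-2 at 3.67 (0.0146) and TRAV12-3 at 4.66 (0.00775), where 69.6% of the 79 segments were called. TRAV12D-3 stood at 2.30 (adjusted p = 0.499) and turned to -0.53 without replicate 1 of KO and to -1.15 without replicate 1 of WT at 48 h. TRAV12-1 stood at 3.04 (adjusted p = 0.0843), and was called without replicate 2 of WT at 48 h, at 5.22 (adjusted p = 0.00862). The call on TRAV12-2 was lost without replicate 2 of KO (0.0713) or replicate 1 of WT (0.0549) at 48 h.

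In the mean of the 3 samplings all 6 members were called higher in KO, with 93.7% of the 79 segments. The differences were 6.89 (SE 0.85, limma adjusted p = 6.24e-05) for TRAV12D-1, 6.23 (SE 0.96) for TRAV12D-2, 5.40 (SE 1.74, adjusted p = 0.0132) for TRAV12D-3, 3.88 (SE 0.84) for TRAV12-1, 3.48 (SE 0.63) for TRAV12-2 and 3.45 (SE 0.71) for TRAV12-3. The median over the members was 4.64 and that over all segments 4.71. Over all Trav segments the mean Jα number was 36.7 and 35.3 in KO, against 31.5 and 30.2 in WT at steady state, 45.7 and 47.1 against 41.8 and 43.01 at 24 h, and 38.6 and 38.5 against 31.96 and 33.7 at 48 h.

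**Figure D4:**
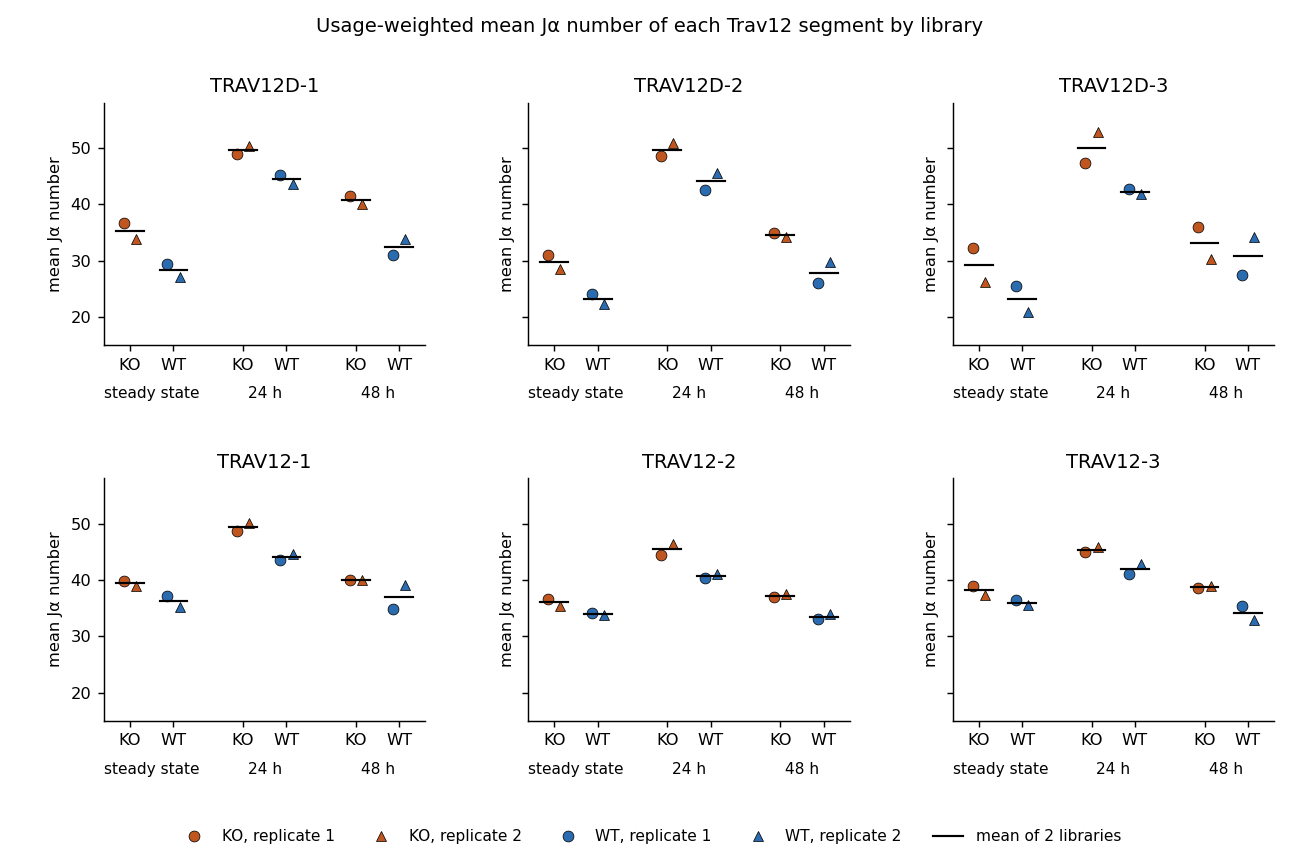
Mean Jα number (y axis, higher means more 5' Traj partners) of each member in each library, by sampling and genotype, with a line at the mean of 2. KO points lie above WT points for every member and sampling other than TRAV12D-3 at 48 h, and at steady state each D copy stands below its proximal counterpart in all 4 libraries.

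All members moved toward 3' Traj partners between 24 h and 48 h. In KO the change in mean Jα number was -8.94 for TRAV12D-1, -15.2 for TRAV12D-2, -16.9 for TRAV12D-3, -9.41 for TRAV12-1, -8.27 for TRAV12-2 and -6.64 for TRAV12-3, all called in limma, with 82.3% of the 79 segments called. In WT it was -12.0, -16.2, -11.4, -7.09, -7.22 and -7.81 in the same order, all called, with 91.1% of segments called. The call on TRAV12D-3 in WT was lost without replicate 1 of WT at 48 h (adjusted p = 0.0562, -7.98). The difference of the changes between KO and WT called 0 of 6 members and 2.53% of segments.

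The D copies differed from their counterparts in Traj partners, and the difference depended on the sampling. TRAV12D-1 minus TRAV12-1 was -3.16 and -5.01 in KO, against -7.72 and -8.07 in WT at steady state, 0.31 and 0.32 against 1.61 and -0.84 at 24 h, and 1.40 and 0.16 against -3.77 and -5.27 at 48 h. This difference was above 0 in each KO library at both tamoxifen samplings and below 0 in each WT library at 48 h. TRAV12D-2 minus TRAV12-2 was -5.75 and -6.84 in KO, against -9.98 and -11.4 in WT at steady state, 4.06 and 4.54 against 2.31 and 4.53 at 24 h, and -1.995 and -3.21 against -7.10 and -4.10 at 48 h. TRAV12D-3 minus TRAV12-3 was -6.75 and -11.1 in KO, against -11.1 and -14.6 in WT at steady state, 2.41 and 6.99 against 1.64 and -0.81 at 24 h, and -2.62 and -8.54 against -7.93 and 1.49 at 48 h. At steady state each D copy thus had more 3' partners than its counterpart in each of the 4 libraries, and at 24 h TRAV12D-2 had more 5' partners than TRAV12-2 in each of the 4.

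Averaged over the groups the difference was -2.50 (SE 0.37, limma adjusted p = 1.06e-04) for TRAV12D-1, -2.91 (SE 0.40, adjusted p = 6.01e-05) for TRAV12D-2 and -4.25 (SE 0.91, adjusted p = 0.00145) for TRAV12D-3. Of the 33 pairs 66.7% were called, and 63.6% with the D copy lower. KO minus WT, in the mean of the samplings, was 3.01 (adjusted p = 0.00796) for TRAV12D-1 and 2.76 (adjusted p = 0.0159) for TRAV12D-2, both called, and 1.95 (adjusted p = 0.339) for TRAV12D-3, where 54.5% of the 33 pairs were called and, with the replicate block, 63.6%. Without the 4 tables with totals near 2, TRAV12D-3 was called too, at 3.34 (adjusted p = 0.01199), with 78.8% of the 33 pairs called. The call on TRAV12D-2 was lost without replicate 1 of KO at steady state (adjusted p = 0.0527).

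Between 24 h and 48 h the difference in KO fell by 6.90 for TRAV12D-2 (adjusted p = 0.00565) and by 10.3 for TRAV12D-3 (adjusted p = 0.0343) and was 0.47 (adjusted p = 0.823) for TRAV12D-1, with 24.2% of the 33 pairs called in limma. In WT it fell by 4.91 for TRAV12D-1 (adjusted p = 0.00708) and by 9.02 for TRAV12D-2 (adjusted p = 4.03e-04) and was -3.63 (adjusted p = 0.349) for TRAV12D-3, with 57.6% called. With the replicate block the call on TRAV12D-3 in KO was lost (adjusted p = 0.0609, with 21.2% of pairs called), and it was also lost without the 4 tables with totals near 2 (-5.03, adjusted p = 0.0812). The difference of the changes between genotypes called 0 of the 3 Trav12 pairs and 6.06% of the 33. With the block it called TRAV12D-1, at 5.38 (SE 1.41, adjusted p = 0.0352, against 0.0657 without the block), where 24.2% of pairs were called. That block assumes the same replicate deviation at all samplings. Over the 33 pairs the deviations at 24 h and 48 h correlated at only -0.10 in KO and 0.01 in WT. The call on TRAV12D-3 in KO was lost as well without replicate 2 of KO at 24 h (0.225) or at 48 h (0.229), and that on TRAV12D-1 in WT without replicate 1 of WT at 24 h (0.0653). In WT, TRAV12D-3 was called without replicate 2 at 48 h (-8.34, adjusted p = 0.0368) and without the 4 tables (-9.57, adjusted p = 0.00115), and stood at 1.08 without replicate 1.

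Other D copies and counterparts showed KO minus WT differences of like size in the mean Jα number. At steady state 23 of the other 30 D copies were called higher in KO, with a median of 6.33, and 9 of their 30 counterparts, with a median of 3.11, beside 2 of 3 Trav12 D copies with a median of 6.43 and 0 of 3 Trav12 proximal members with a median of 2.19. In the mean of the samplings the counts were 30 of 30 other D copies with a median of 6.28 and 28 of 30 counterparts with a median of 3.64.

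The members' partners were examined along the array. The most 5' window, Traj58 to Traj53, lies next to the TEA promoter, which is known to drive the first joinings to the array. At 24 h it held 43.2% and 45.6% of the joinings of TRAV12D-1 in KO, against 28.3% and 29.1% in WT. Of those of TRAV12D-2 it held 49.7% and 62.1% in KO, against 30.1% and 33.4% in WT, and of those of TRAV12D-3 45.6% and 62.6% in KO, against 35.2% and 25.1% in WT. In KO the window thus took 43.2% or more of the joinings of each D copy. It held 41.8% and 49.4% of the joinings of TRAV12-1 in KO, against 27.6% and 34.4% in WT. Of those of TRAV12-2 it held 25.7% and 36.5% in KO, against 16.2% and 17.7% in WT, and of those of TRAV12-3 25.2% and 31.7% in KO, against 15.8% and 17.7% in WT. KO was higher without overlap in all 6 members, and TRAV12-1 stood above the other proximal members in 4 of 4 libraries. How many of the 79 segments did not overlap in this window was not counted. In the mean Jα number at 24 h, KO minus WT was above 0 in 77 of the 79.

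At steady state the genotypes differed at both ends of the array. The 13 segments Traj58 to Traj42 held 47.5% and 40.5% of the joinings of TRAV12D-1 in KO, against 31.6% and 26.6% in WT. They held 27.45% and 20.996% of those of TRAV12D-2 in KO, against 16.4% and 14.02% in WT, and 31.4% and 18.005% of those of TRAV12D-3 in KO, against 20.6% and 11.4% in WT. Among the D copies KO and WT overlapped in TRAV12D-3 alone. Of the joinings of TRAV12-1 they held 50.7% and 48.3% in KO, against 44.9% and 41.4% in WT. Of those of TRAV12-2 they held 39.8% and 35.3% in KO, against 35.7% and 33.4% in WT, and of those of TRAV12-3 48.7% and 43.7% in KO, against 42.9% and 39.2% in WT. KO was higher without overlap in TRAV12-1 and TRAV12-3, and the genotypes overlapped in TRAV12-2. For Trav segments in general, non-overlap in this window was not counted. In the mean Jα number at steady state, KO minus WT was above 0 in 79 of 79 segments.

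The 3' end at steady state showed the opposite order of the genotypes. The 14 segments Traj21 to Traj2 held 23.2% and 28.8% of the joinings of TRAV12D-1 in KO, against 39.3% and 45.0% in WT. They held 32.1% and 36.9% of those of TRAV12D-2 in KO, against 49.4% and 55.1% in WT, and 29.1% and 45.1% of those of TRAV12D-3 in KO, against 48.1% and 61.2% in WT. The values of the proximal members were lower. The window took 11.9% and 13.9% of the joinings of TRAV12-1 in KO, against 17.4% and 22.8% in WT. It took 14.7% and 16.5% of those of TRAV12-2 in KO, against 20.99% and 20.8% in WT, and 11.5% and 14.1% of those of TRAV12-3 in KO, against 16.7% and 17.9% in WT. Each member was lower in KO without overlap, and the D copies had the higher 3' share in each library. For Trav segments in general, non-overlap in this window was not counted. Over all Trav-Traj pairs of the window, 914 of 1106 took a lower share of the repertoire in KO at steady state. At the very end, Traj2 took 0.416% and 0.457% of the joinings of the summed D copies in KO, against 2.79% and 3.34% in WT, and 0.258% and 0.406% against 1.497% and 1.61% of those of the summed proximal members.

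**Figure D5:**
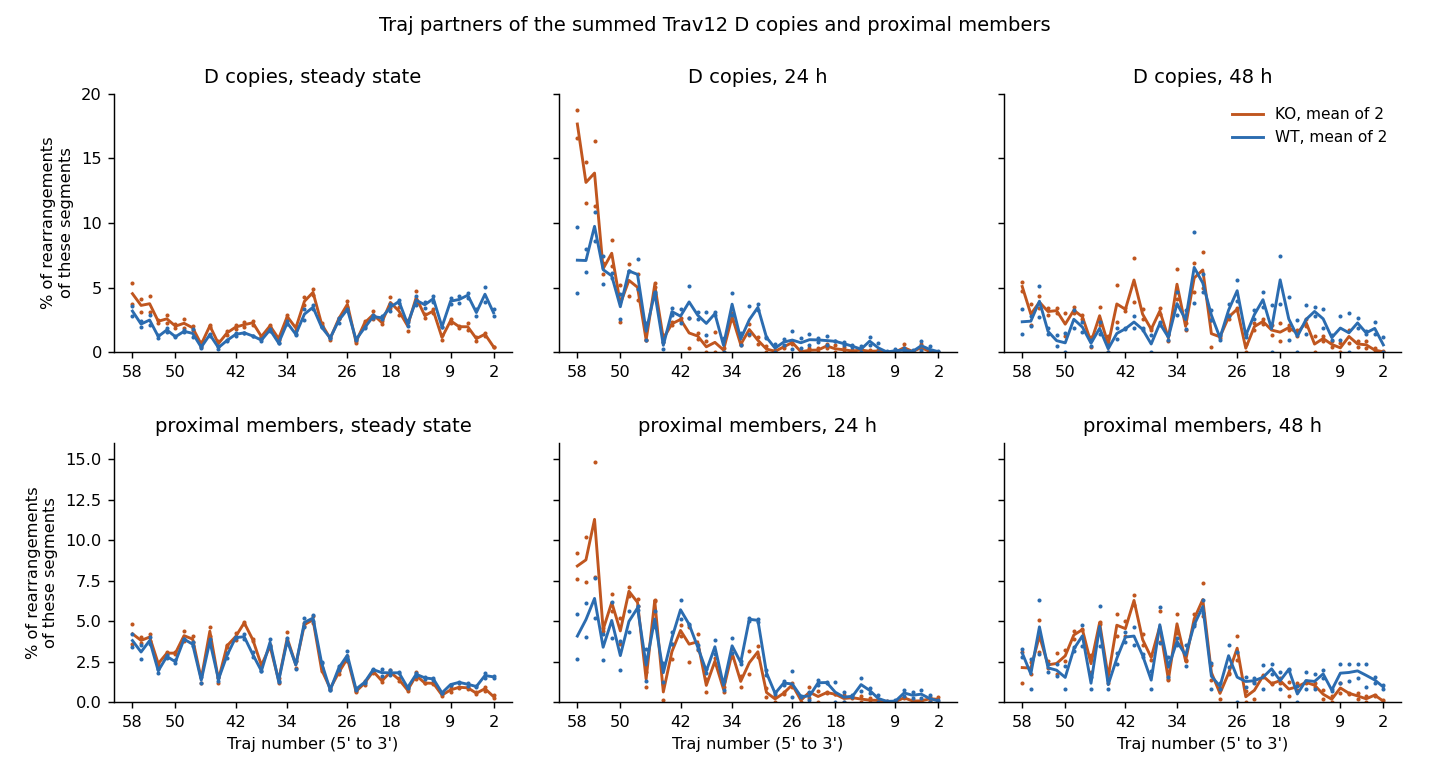
Percentage of the joinings of the summed D copies (upper row) and of the summed proximal members (lower row) that used each Traj segment (x axis, 5' to 3'), by sampling, with points for libraries and lines for the mean of 2. At 24 h KO lines lie above WT lines at Traj58 to Traj56, and at steady state Traj2 took 0.416% and 0.457% of the joinings of the D copies in KO, against 2.79% and 3.34% in WT.

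The most used partners of each member, by mean share over the 12 libraries, give a pooled order, and the most used partner changed with the sampling. They were Traj58 and Traj56 for TRAV12D-1 and for TRAV12D-2, Traj58 and Traj57 for TRAV12D-3, Traj56 and Traj57 for TRAV12-1, Traj31 and Traj56 for TRAV12-2, and Traj45 and Traj40 for TRAV12-3. At 24 h the most used partner lay in Traj58 to Traj53 in 4 of 4 libraries for TRAV12D-1, TRAV12D-2 and TRAV12-1, in 3 for TRAV12D-3 and in 2 each for TRAV12-2 and TRAV12-3. At 48 h this held in 3 of 4 libraries for TRAV12D-1 and in 0 for the other 5 members. Over all 12 libraries it held in 10 for TRAV12D-1, 5 for TRAV12D-2, 4 for TRAV12D-3, 7 for TRAV12-1, 2 for TRAV12-2 and 3 for TRAV12-3. At steady state the most used partner of TRAV12D-1 was Traj58 in both KO libraries, against Traj58 and Traj7 in WT. For TRAV12D-2 it was Traj58 and Traj31 in KO, against Traj6 and Traj4 in WT, and for TRAV12D-3 Traj58 and Traj31 in KO, against Traj7 and Traj4 in WT. The pair TRAV12D-2 with Traj58 took 0.0841% and 0.0666% of the repertoire in KO, against 0.0620% and 0.0547% in WT at steady state, 0.180% and 0.229% against 0.0931% and 0.0329% at 24 h, and 0.0664% and 0.0147% against 0.0594% and 0.00952% at 48 h. KO was higher without overlap at steady state and 24 h, and the genotypes overlapped at 48 h. The pair TRAV12-2 with Traj31 took 0.110% and 0.113% in KO, against 0.0852% and 0.0703% in WT at steady state, 0.0624% and 0.0587% against 0.0990% and 0.0863% at 24 h, and 0.141% and 0.192% against 0.102% and 0.0658% at 48 h, so that KO was lower at 24 h and higher at steady state and 48 h, each without overlap.

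How many of the 258 member pairs with a Traj segment passed the test over all 3397 pairs turned on the libraries in the fit. For KO minus WT limma called 0 member pairs in each of the 3 samplings, where 0.294%, 0% and 0% of all pairs were called and 211, 187 and 510 pairs, 18, 17 and 46 of them member pairs, had an unadjusted p below 0.05. In the mean of the samplings it called 2 member pairs, both lower in KO, with 1.09% of all pairs called. With the replicate block it called 2 member pairs at 48 h (1.65% of all pairs) and 4 in the mean (2.24%). Without the 4 tables with totals near 2, limma called 28 member pairs at steady state (7 higher and 21 lower in KO, with 10.8% of all pairs called), 58 at 48 h (14 higher and 44 lower, 20%) and 92 in the mean (36 higher and 56 lower, 36.7%), and 0 at 24 h. Leaving out replicate 1 of KO at 48 h gave 8 in the mean, and leaving out replicate 1 or replicate 2 of WT at 48 h gave 10 and 25. Leaving out any 1 of the other 9 libraries gave 0 in the mean.

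TRAV12D-1 with Traj4, called in the mean of the samplings at -0.87 (SE 0.15, adjusted p = 0.0442), took 0.00890% and 0.0107% in KO, against 0.0424% and 0.0462% in WT at steady state, 0.00164% and 0% against 0.000853% and 0% at 24 h, and 0.000850% and 0% against 0.0200% and 0.00937% at 48 h. TRAV12-2 with Traj2, at -0.75 (SE 0.13, adjusted p = 0.0485), took 0.00392% and 0.00605% in KO, against 0.0227% and 0.0148% in WT at steady state, 0.000821% and 0% against 0.000853% and 0% at 24 h, and 0.00256% and 0% against 0.0172% and 0.0189% at 48 h. Both pairs were lower in KO without overlap at steady state and 48 h. Each call was lost in 9 of the 12 fits that leave out 1 library. The block fit called TRAV12D-2 with Traj9 (-1.69, adjusted p = 0.0414) and with Traj4 (-1.81, 0.0424) at 48 h, and in the mean TRAV12D-1 with Traj4 (-0.87, 0.0393), TRAV12D-2 with Traj9 (-0.88, 0.0393), TRAV12D-2 with Traj4 (-1.23, 0.0393) and TRAV12D-1 with Traj6 (-0.86, 0.0420).

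The direction of the member pairs followed the window. At steady state 0 of 42 pairs of a D copy with a segment of Traj21 to Traj2 were higher in KO and 42 were lower, with a median log2 difference of -0.59. For the proximal members 18 were higher and 24 lower, with a median of -0.05, and over all pairs of that window 192 were higher and 914 lower, with a median of -0.34. In the window Traj58 to Traj42, 33 of 39 D copy pairs and 39 of 39 proximal pairs were higher in KO, with medians of 0.20 and 0.40, and over all pairs 929 of 1027, with a median of 0.27.

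The Trav segments whose shares most resembled the family's across libraries were named by Pearson's r of log2(percent + 0.01) over the 12 libraries, which share groups and the 4 tables with totals near 2. For the summed D copies they were TRAV5D-4 (r = 0.947), TRAV14D-2 (r = 0.941) and TRAV7D-2 (r = 0.940), all D copies. For the summed proximal members they were TRAV3-3 (r = 0.872), TRAV15-1/DV6-1 (r = 0.871) and TRAV5-4 (r = 0.868), none of which is a D copy. TRAV15-1/DV6-1 is a segment with a DV name.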

How the data were processed

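Tcra transcripts were amplified by template-switch RACE from total RNA with an antisense Trac primer, per the labels' protocols. The deposited values are fractions, with 1 row for each Trav and 1 column for each of 43 Traj segments, per the file headers. For the aligner, the build, the segment annotation and the counted unit, the entry is: not given in the sources used here. Depth is therefore unknown. Each value was divided by its table's total and multiplied by 100. Tests ran with limma 3.58.1 in R 4.3.3, on log2(percent + 0.01) or on mean Jα numbers, with 1 mean per group and 6 residual degrees of freedom, and Benjamini-Hochberg adjustment at 0.05 over the 79 Trav segments, 33 D pairs or 3397 Trav-Traj pairs. Log2 changes on this scale understate those of low shares. The scripts were tested on simulated data, where for the mean KO minus WT difference over the 79 Trav segments 4 of 8 changes of 1 and 4 of 8 of 2 on the log2 scale were called, with 0 of 63 unchanged segments called, and over the 3397 pairs 49 of 100 and 86 of 100, with 8 of 3197.

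Replicate numbers come from the sample titles. Deviations of same-numbered KO and WT libraries from their group means correlated at r = 0.72, 0.93 and 0.93 over Trav shares at steady state, 24 h and 48 h. They correlated at 0.92, 0.87 and 0.89 over D to proximal ratios and at 0.46, 0.65 and 0.56 over Trav-Traj pairs. The numbers were taken to pair those libraries for these measures. Over the D minus proximal mean Jα number the values were 0.87, 0.24 and 0.19, so pairing had little ground at 24 h and 48 h. Between 24 h and 48 h the deviations of this measure correlated at -0.10 in KO and 0.01 in WT. Its block fit is given as an alternative only. At 24 h and 48 h, replicate 2 is the table with a total near 2 in both genotypes. For the mean Jα number itself the values were 0.84, 0.09 and 0.02, and the numbers were not taken to pair them.

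The members and the lists of segments were chosen with earlier results of these data known. All members were named, with the 2 Traj partners of highest mean share, up to 4 called pairs a comparison by adjusted p, the D pairs with the highest and the lowest ratio and the 3 segments most like the D copies and most like the proximal members. The values over time of the D minus proximal mean Jα number, and the differences of changes for measures other than shares, were added after the data were seen. Gene positions and exon sequences are those of GENCODE M21 on GRCm38. Alternatives were the replicate block, each library left out, library weights, the 4 tables left out, other pseudocounts and scalings, a filter on low values, a prior trend, separate fits of each sampling and means without Traj58 to Traj53.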

Additional observations from a re-analysis of the deposited data

Results flagged for a closer look

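Differences between 24 h and 48 h in the same genotype passed the test for some D copies. The log2 ratio of TRAV12D-3 to TRAV12-3 was higher at 48 h than at 24 h by 1.58 in WT (limma adjusted p = 0.0173), in both libraries of the later sampling, where 27.3% of the 33 D pairs were called. The mean Jα number of the D copy minus that of its counterpart changed between 24 h and 48 h by -6.90 for TRAV12D-2 and by -10.28 for TRAV12D-3 in KO (limma adjusted p = 0.00565 and 0.0343, with 24.2% of the 33 pairs called), and by -4.91 for TRAV12D-1 and by -9.02 for TRAV12D-2 in WT (limma adjusted p = 0.00708 and 4.03e-04, with 57.6% called). Over all 33 pairs the median change was -2.25 in KO and -4.53 in WT. The call on TRAV12D-3 in KO was lost with the replicate block (adjusted p = 0.0609).

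For TRAV12D-2 the share in KO lay below that in WT at steady state and above it at 24 h, each without overlap and neither called. The KO minus WT difference in its share was -0.23 (SE 0.38) in steady-state cells and 0.29 (SE 0.38) at 24 h on the log2 scale. Its log2 ratio to TRAV12-2 differed by -0.63 in steady-state cells and by -0.92 at 48 h. At 24 h the ratio differed by 0.092 (SE 0.34), which is well within its error. The nearest libraries there stood at -1.074 in KO and -1.081 in WT. The differences between these samplings were not tested. With 2 libraries in each group, no library was tested for standing apart from its group.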

How the results depend on the processing

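Counts here are Trav12 members, pairs of a D copy with its counterpart, or member pairs with a Traj segment that were called. Under the alternatives, 528 counts stayed within 1.5 times and 66 did not. Of single estimates, 1286 kept their direction and their side of the threshold, 69 lost and 53 gained a call in the same direction and 11 turned their sign. The replicate block moved no count of mean Jα numbers of members by over 1.5 times. With the replicate block, KO minus WT called 3 members by share at 48 h and 4 in the mean against 0 (3 and 3 with the block and centring, which was chosen after seeing the data), 3 ratios at steady state, 3 at 48 h and 3 in the mean against 0, 2 pairs at 48 h against 0 and 4 in the mean against 2. Over time the block gave 2 ratios in WT against 1, 1 difference in mean Jα number in KO against 2 and 1 for the difference of the changes against 0.

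Without the 4 tables that sum to nearly 2, the counts were 2 shares in the mean and 2 over time in WT, 2 ratios in the mean and 2 over time in WT, 4 mean Jα numbers at steady state, 28, 58 and 92 pairs at steady state, 48 h and in the mean, and 1 difference in mean Jα number over time in KO. Library weights gave 6 mean Jα numbers at steady state, 43 pairs at steady state and 0 in the mean. For library weights and the alternatives that follow here, the share of all features called is not given. Separate fits of each sampling gave 4 mean Jα numbers and 28 pairs at steady state. A pseudocount of 0.1 gave 0 ratios over time in WT and 5, 3 and 9 pairs at steady state, 48 h and in the mean. A pseudocount of 0.001, a prior trend and leaving out low values each gave 0 pairs in the mean, and the trend 0 ratios over time in WT. Without Traj58 to Traj53, 3 mean Jα numbers were called at 24 h, and 1 difference between D copy and counterpart in the mean, 0 over time in KO and 1 for the difference of the changes. That over time in KO for TRAV12D-1 turned to -0.23. The cause was not tested.

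Leaving out 1 library at a time gave 0 to 1 ratios in the mean and 0 to 1 over time in WT, 0 to 3 mean Jα numbers at steady state and 0 to 6 at 24 h, 0 to 6, 0 to 18 and 0 to 25 pairs at steady state, 48 h and in the mean, and 1 to 2 differences in mean Jα number in the mean, 1 to 2 over time in KO and 1 to 3 in WT. At 48 h the KO minus WT share of TRAV12D-2 ranged from -0.825 to 0.0931, that of TRAV12D-3 from -1.73 to 0.27 and that of TRAV12-3 from -0.418 to 1.66. In the mean it ranged from -0.258 to 0.0479 for TRAV12D-2 and from -0.631 to 0.0352 for TRAV12D-3. The mean Jα number of TRAV12D-3 at 48 h ranged from -1.15 to 5.76, and the difference over time from -0.153 to 1.09 for TRAV12D-1 in KO and from -8.34 to 1.08 for TRAV12D-3 in WT. A group left with 1 library was taken to vary like the others. Depth is unknown, and pairs at 0 in the 4 tables limit what can be said of TRAV12D-3 at 24 h and 48 h.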
